A study of Homo sapiens with 6 samples.

Results

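The genes described here encode the core machinery of RNA silencing in human cells, namely Drosha, its partner DGCR8, the export receptor exportin 5, Dicer, its partner TRBP, the Argonaute proteins and the TNRC6 scaffold proteins. They were taken by name (DROSHA, DGCR8, XPO5, DICER1, TARBP2, AGO1, AGO2, AGO3, TNRC6A and TNRC6B), and all 10 were found among the 56303 gene rows of the deposited count table. Expression was measured by RNA sequencing in A549, an established human lung adenocarcinoma line. Of 6 libraries, 3 came from A549 cells transfected with siRNA against HNRNPD and 3 from A549 cells transfected with a negative control siRNA. The sources used here do not give the siRNA sequences, their dose or the time after transfection. Nothing in the labels ties the replicates to separate cultures, so p-values measure the spread from library to library alone, and that spread may be technical.

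A microRNA (miRNA) begins as a hairpin in a long primary transcript. Drosha, a nuclear RNase, cuts the hairpin out together with the RNA-binding protein DGCR8, exportin 5 carries it to the cytoplasm, and Dicer trims it with the help of TRBP. An Argonaute protein then takes up the mature strand, and a TNRC6 protein (GW182) bound to Argonaute recruits the deadenylases that shorten the poly(A) tail of the target mRNA. HNRNPD encodes AUF1, a protein that binds AU-rich mRNA and has been reported to bind the DICER1 mRNA and to lower its stability. An siRNA also acts through an Argonaute protein, and the cells of both groups received one.

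The libraries held 37151094 to 40462117 counts after HNRNPD siRNA and 42607632 to 43005090 in the controls. HNRNPD itself was at 177, 162.7 and 167.5 CPM (the usual per-million scaling of counts, here with library totals adjusted by the TMM method) after HNRNPD siRNA, against 965.4, 942.8 and 942.2 CPM in the controls, so its level matched the label of all 6 libraries. All 12 A549 markers were present, with a summed level of 7962 to 9717 CPM after HNRNPD siRNA and 13610 to 14550 CPM in the controls, and 11 of them were lower after HNRNPD siRNA. CDKN2A, which is deleted in A549, reached at most 0.44 CPM. Of 9 markers of blood cells, fibroblasts and endothelium, 2 to 4 were at 0 in each library, and the highest was COL1A1 at 7.04 CPM. The summed level of 5 interferon-induced genes (MX1, IFIT1, ISG15, OAS1 and IFI44) was 2126, 1678 and 2719 CPM in HNRNPD siRNA libraries 1 to 3, against 18.12, 17.65 and 15.73 CPM in the controls, and all 5 were called higher. This response ran alongside every difference below, and its part in them was not tested. In bulk libraries, fewer cells with a transcript and less of it per cell cannot be told apart.

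The comparison asks how the silencing machinery differs at the RNA level once HNRNPD is lowered. Of the 10 genes, 2 were called higher and 3 lower after HNRNPD siRNA, at an adjusted p under 0.05 in edgeR's quasi-likelihood test. Among all 20465 genes tested, 56.1% were called, 28.4% higher and 27.8% lower, so 5 of 10 is a share near the background. DROSHA rose 2.27-fold and TNRC6A fell 2.07-fold, while the other 3 called genes, DICER1, DGCR8 and TARBP2, differed by 1.21-fold to 1.32-fold. XPO5, the 3 Argonaute genes and TNRC6B were not called. The median log2 fold change of the 10 genes was -0.09, against 0.01 over all tested genes. The levels of the groups did not overlap for 7 of the 10 genes, and the same held for 62.6% of all tested genes.

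**Figure D1:**
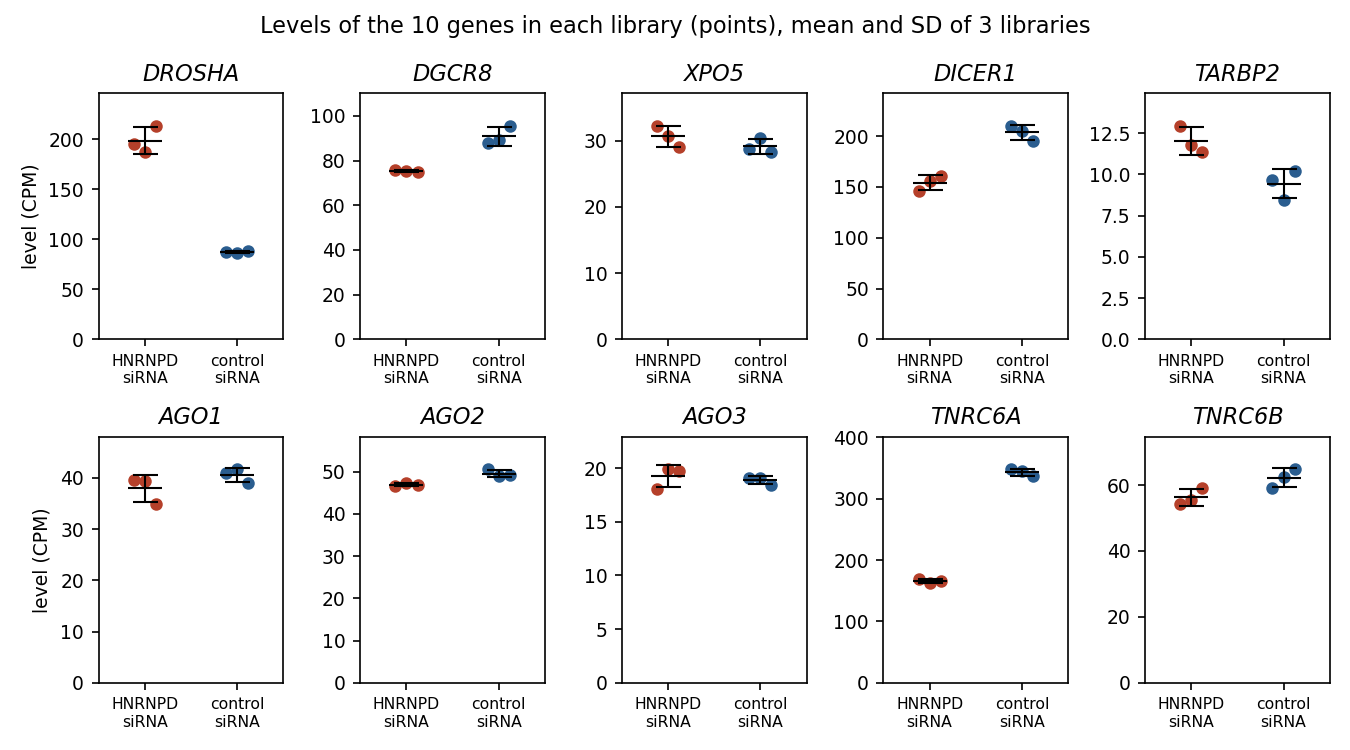
Each panel plots the level of a gene in CPM on a linear axis from 0, with a point per library (3 after HNRNPD siRNA at the left, 3 with control siRNA at the right) and the mean with its SD. DROSHA stands at 187.2 to 213.7 CPM after HNRNPD siRNA above controls of 86.73 to 88.66 CPM, TNRC6A shows the opposite order, and the 3 Argonaute genes are nearly level.

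Among the nuclear genes, DROSHA, which encodes the catalytic RNase III enzyme of the Microprocessor, showed the clearest rise. Its level was 194.9, 187.2 and 213.7 CPM in HNRNPD siRNA libraries 1 to 3, against 87.29, 86.73 and 88.66 CPM in the controls. Every library of HNRNPD siRNA lay more than 2-fold above every control, and the controls differed from each other by no more than 1.02-fold. The log2 fold change was 1.18 (SE 0.06, adjusted p = 1.88e-11 in edgeR). Of all tested genes, 7.94% had a larger one. On GRCh38 the gene spans bases 31400497 to 31532196 of chromosome 5, on the minus strand, and none of its exonic bases are shared with another gene of the table.

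DGCR8, whose protein binds the primary hairpin and holds Drosha to it, fell. Its level was 75.91, 75.43 and 74.84 CPM after HNRNPD siRNA, against 87.68, 89.33 and 95.67 CPM in the controls. The groups did not overlap, and the HNRNPD siRNA libraries were within 1.01-fold of each other. The log2 fold change was -0.27 (SE 0.06, adjusted p = 0.000737 in edgeR). DGCR8 lies on chromosome 22 from 20080232 to 20111877 (plus strand), and 7.2% of its exonic bases are shared with other genes, mostly with AC006547.8 on the opposite strand, which had 25 to 49 counts after HNRNPD siRNA and 40 to 62 in the controls.

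The DGCR8 mRNA is itself known as a substrate of the Microprocessor, because Drosha can cut hairpins near its 5′ end. In RefSeq these hairpins are annotated as miRNA genes, and their mature sequences are shown because they lie inside the transcript whose level is reported here. All of their bases fall in DGCR8 exons of the deposited table, the miR-3618 sequence in the 5′ UTR (chr22:20085797-20085818) and both miR-1306 sequences in the coding region (chr22:20086072-20086093 and chr22:20086112-20086129, all GRCh38, plus strand). Capitals mark the seed, bases 2 to 8.
hsa-miR-3618: uGUCUACAuuaaugaaaagagc
hsa-miR-1306-5p: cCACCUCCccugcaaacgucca
hsa-miR-1306-3p: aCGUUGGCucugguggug
The deposited table has no rows of their own for MIR3618 and MIR1306, so cleavage at these hairpins was not analysed here. DROSHA was called higher and DGCR8 lower within the same libraries, and a link between the 2 differences was not tested. Of all tested genes, 64.66% had a larger absolute log2 fold change than DGCR8. In level per length, DROSHA was at 25.5 ± 1.76 CPM per kb after HNRNPD siRNA and 11.3 ± 0.127 CPM per kb in the controls (SD, n = 3 each). DGCR8 was at 10.3 ± 0.0735 CPM per kb after HNRNPD siRNA and 12.4 ± 0.576 CPM per kb in the controls.

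XPO5 encodes exportin 5, which carries precursor hairpins through the nuclear pore. It was at 32.27, 30.64 and 29.1 CPM after HNRNPD siRNA, against 28.71, 30.37 and 28.25 CPM in the controls. The groups overlapped, and the gene was not called (log2 fold change 0.07, 95% interval -0.07 to 0.22, adjusted p = 0.38 in edgeR). The interval covers differences of 0.951-fold to 1.17-fold. RAN, the GTPase that exportin 5 needs for transport, is counted in the list of accessory genes below, where its own value is not given.

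**Figure D2:**
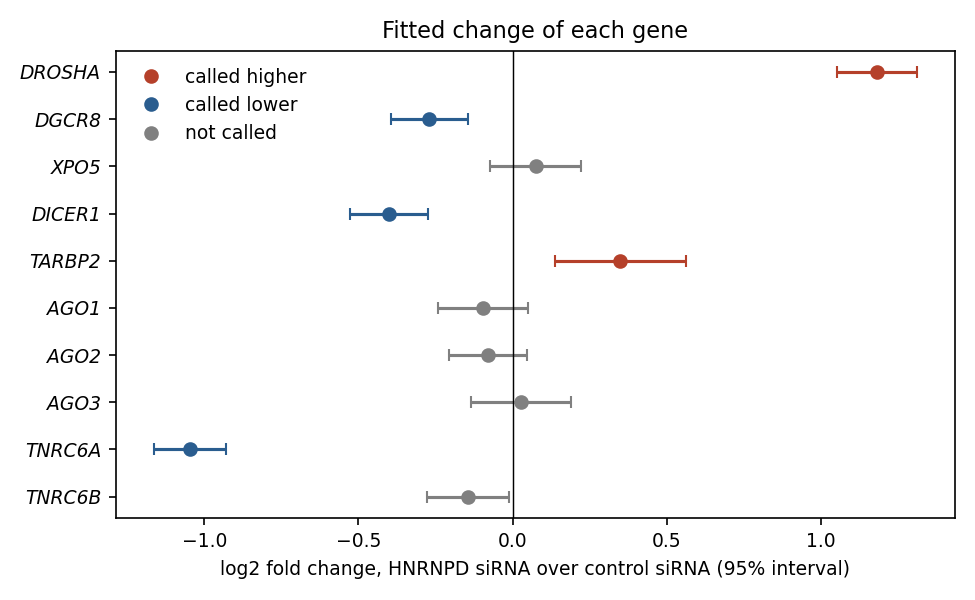
Log2 fold changes (HNRNPD siRNA over control siRNA, horizontal axis) of the 10 genes in the order of the pathway, with 95% intervals from the fit and colours for the call. DROSHA at 1.18 and TNRC6A at -1.05 lie apart from the other 8 genes, which fall between -0.40 and 0.35.

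DICER1 encodes the cytoplasmic RNase III enzyme that turns precursor hairpins into miRNA duplexes. It fell to 145.9, 156.3 and 160.7 CPM in HNRNPD siRNA libraries 1 to 3, against 210.5, 205.1 and 195.6 CPM in control libraries 1 to 3. The highest HNRNPD siRNA library was below the lowest control. With less HNRNPD, DICER1 was thus lower and not higher, and an action of AUF1 on its mRNA was not tested. The log2 fold change was -0.40 (SE 0.06, 95% interval -0.53 to -0.28, adjusted p = 1.41e-05 in edgeR), a 1.32-fold difference, and 23.44% of tested genes had a lower value. DICER1 lies on chromosome 14 from 95086228 to 95158010 (minus strand). It shares 80 of its 12294 exonic bases with the opposite-strand gene DICER1-AS1, which had 148 to 209 counts after HNRNPD siRNA and 54 to 70 in the controls, small beside the 5309 or more counts of DICER1 in every library.

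The DICER1 mRNA is also a known target of the miRNAs that Dicer makes, with let-7 sites in its coding region and sites of miR-103 and miR-107 in its 3′ UTR. A search of the principal DICER1 transcript of GENCODE 29 for CTACCTC, the complement of the let-7 seed, found 4 matches in the coding region and 0 in the 3′ UTR. Of 18437 protein-coding genes, 8.8% had a match in their 3′ UTR. No such share was computed for coding regions, so whether 4 coding matches are unusual was not tested. The coding matches are shown with 9 bases on each side as DNA, the match in capitals, in the order in which they occur along the mRNA (chr14:95107880-95107904, chr14:95103740-95103764, chr14:95103632-95103656 and chr14:95094098-95094122, GRCh38, minus strand).
DICER1 coding match a: tactgtgttCTACCTCttaatgttg
DICER1 coding match b: tgcaaccaaCTACCTCatattccat
DICER1 coding match c: ctaacaaatCTACCTCagatggaag
DICER1 coding match d: gattttggaCTACCTCataaccaag
For ATGCTGC, the complement of the shared seed of miR-103a and miR-107, the DICER1 3′ UTR of 4270 bases held 5 matches, and 11.5% of all 3′ UTRs held at least 1. The first and the last of the 5 along the mRNA are shown (chr14:95089449-95089473 and chr14:95086321-95086345, minus strand).
DICER1 3′ UTR match, first: acctaaaatATGCTGCagattttat
DICER1 3′ UTR match, last: acagtaatcATGCTGCagaaatttg
AGO2 also held 5 such matches, in a longer 3′ UTR of 11888 bases. AGO1 and TNRC6B held 3 each. AGO3 and TARBP2 held 1 each, in TARBP2 within a 3′ UTR of only 283 bases. Of the other 9 genes, TARBP2, AGO1, AGO2 and AGO3 held 1 or 2 let-7 matches in the 3′ UTR, and DROSHA, DGCR8 and TNRC6A held no match to either seed in the coding region or the 3′ UTR. A match is a description of the sequence and not evidence of binding in these cells.

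TARBP2 encodes TRBP, the double-stranded RNA-binding partner of Dicer and an inhibitor of the RNA-activated kinase PKR. It was the least abundant of the 10 genes in CPM, at 12.97, 11.81 and 11.34 CPM after HNRNPD siRNA, against 9.672, 8.473 and 10.2 CPM in the controls. The groups did not overlap, and the gene was called higher (log2 fold change 0.35, SE 0.10, adjusted p = 0.00673 in edgeR), on 454 to 495 counts in the HNRNPD siRNA libraries and 363 to 428 in the controls. This call was lost without control replicate 2 (log2 fold change 0.27, adjusted p = 0.0551). PRKRA, which encodes PACT, another Dicer partner and an activator of PKR, was at 12.04 ± 0.909 CPM after HNRNPD siRNA and 13.69 ± 0.559 CPM in the controls (SD, n = 3 each) and was not called (log2 fold change -0.18, 95% interval -0.37 to 0.01, adjusted p = 0.0935 in edgeR). PRKRA overlaps AC009948.5 on the opposite strand by 85 bases, a gene with 407 to 491 counts after HNRNPD siRNA and 140 to 171 in the controls. It also overlaps DFNB59 on the opposite strand by 77 bases, with 113 to 154 counts after HNRNPD siRNA and 13 to 41 in the controls. DICER1 and TARBP2, whose proteins form a complex, differed in opposite directions, both by amounts common in these libraries. Of all tested genes, 51% had a larger absolute log2 fold change than DICER1 and 56.09% a larger one than TARBP2.

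The Argonaute genes encode the proteins that hold the mature strand, and AGO2 is the human Argonaute best known for slicing fully matched targets. AGO1 was at 39.55, 39.47 and 34.85 CPM after HNRNPD siRNA, against 40.97, 41.71 and 39.05 CPM in the controls. AGO2 was at 46.59, 47.27 and 46.86 CPM after HNRNPD siRNA, against 50.59, 48.83 and 49.18 CPM in the controls. AGO3 was at 18.06, 19.92 and 19.73 CPM after HNRNPD siRNA, against 19.13, 19.12 and 18.43 CPM in the controls. The groups overlapped for AGO1 and AGO3. For AGO2 every HNRNPD siRNA library was lower than every control, but the gap was small and the gene was not called.

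The Argonaute log2 fold changes were -0.10 for AGO1 (95% interval -0.24 to 0.05, adjusted p = 0.25), -0.08 for AGO2 (-0.21 to 0.05, adjusted p = 0.28) and 0.03 for AGO3 (-0.13 to 0.19, adjusted p = 0.79), all in edgeR. The bound farthest from no difference was 0.846-fold for AGO1, 0.867-fold for AGO2 and 1.14-fold for AGO3. AGO4, the remaining paralog, was at 29.97 ± 1.92 CPM after HNRNPD siRNA and 29.01 ± 0.711 CPM in the controls (SD, n = 3 each) and was also not called (log2 fold change 0.05, adjusted p = 0.60 in edgeR). AGO1, AGO3 and AGO4 lie next to each other on chromosome 1 (AGO4 from 35808172, AGO1 from 35869808 and AGO3 from 35930718, all plus strand), and AGO2 lies on chromosome 8 from 140520156 to 140635619 (minus strand).

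Summed over the 4 Argonaute genes, the level per length was 10.98, 10.6 and 10.61 CPM per kb after HNRNPD siRNA, against 10.96, 11.09 and 10.76 CPM per kb in the controls. The makeup of this sum was also close between the groups. AGO4 held 38.4% ± 2.0 of it after HNRNPD siRNA and 36.5% ± 0.74 in the controls, and AGO2 held 27.6% ± 0.72 after HNRNPD siRNA and 28.6% ± 0.71 in the controls (SD, n = 3 each). AGO1 held 25.5% ± 1.6 after HNRNPD siRNA and 26.7% ± 0.51 in the controls, and AGO3, the smallest part, 8.48% ± 0.62 after HNRNPD siRNA and 8.17% ± 0.082 in the controls. The lead of AGO4 depends on the length scaling, with 7267 exonic bases for AGO4, 13886 for AGO1 and 15833 for AGO2. In CPM, AGO4 at 29.01 in the controls was below AGO2 at 49.53 and AGO1 at 40.58. The same order in CPM held after HNRNPD siRNA. Two-sided exact permutation tests gave p-values of 0.2 to 0.4 for these shares and 0.3 for the sum, where 3 against 3 libraries cannot go below 0.1.

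TNRC6A, which encodes GW182, the scaffold between Argonaute and the deadenylases, was the most abundant of the 10 genes in the controls and fell. Its level was 169.4, 163.2 and 165.6 CPM after HNRNPD siRNA, against 348.2, 344.5 and 337 CPM in the controls. Within each group the libraries were within 1.04-fold of each other, and the groups were about 2-fold apart. The log2 fold change was -1.05 (SE 0.06, adjusted p = 2.28e-11 in edgeR), and 5.72% of tested genes had a lower one. TNRC6A lies on chromosome 16 from 24610209 to 24827632 (plus strand) and shares none of its exonic bases with another gene of the table.

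TNRC6B, a paralog that also binds Argonaute and the CCR4-NOT complex, was at 54.14, 55.53 and 59.15 CPM after HNRNPD siRNA, against 59.23, 62.58 and 64.87 CPM in the controls. The nearest libraries, at 59.15 CPM after HNRNPD siRNA and 59.23 CPM in the controls, almost met, and the gene was not called (log2 fold change -0.14, 95% interval -0.28 to -0.01, adjusted p = 0.0598 in edgeR). It was called without control replicate 1 (adjusted p = 0.0417) or without HNRNPD siRNA replicate 3 (adjusted p = 0.00854). TNRC6C, the family member outside the 10 genes, rose to 13.08, 13.62 and 14.44 CPM after HNRNPD siRNA, against 8.592, 10.22 and 9.107 CPM in the controls (log2 fold change 0.56, SE 0.10, adjusted p = 7.53e-05 in edgeR), and 12.9% of its exonic bases are shared with an antisense gene. The 3 paralogs thus went in different ways, with TNRC6A called lower, TNRC6B not called and TNRC6C called higher.

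The summed level per length of the TNRC6 genes was 16.99, 16.63 and 17.07 CPM per kb after HNRNPD siRNA, against 30.68, 30.7 and 30.14 CPM per kb in the controls. TNRC6A held 76% ± 1.0 of it after HNRNPD siRNA and 87.1% ± 0.69 in the controls. TNRC6B held 16.7% ± 0.7 after HNRNPD siRNA and 10.2% ± 0.55 in the controls, and TNRC6C 7.3% ± 0.35 after HNRNPD siRNA and 2.75% ± 0.24 in the controls (SD, n = 3 each). In each of these the groups did not overlap, and the two-sided exact permutation p was 0.1, the smallest that 3 against 3 libraries can give. Paralogs share stretches of similar sequence, and the sources used here do not say how reads matching more than 1 place were treated.

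**Figure D3:**
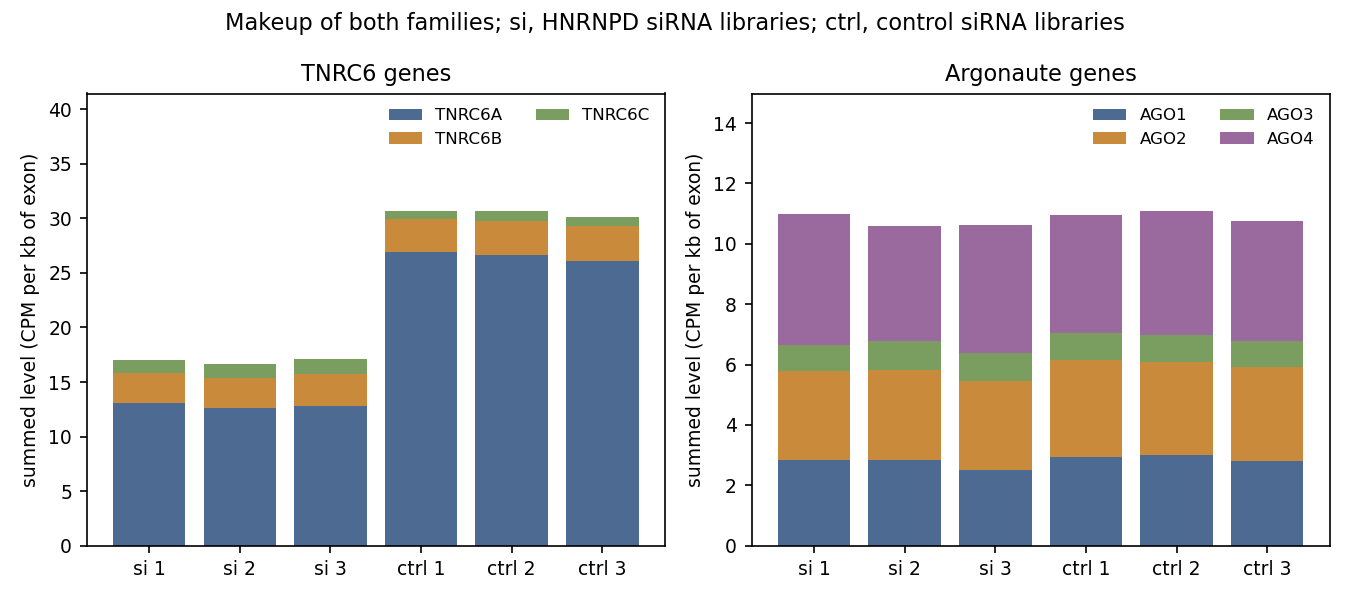
Stacked bars give the summed level of the TNRC6 genes (left) and of the Argonaute genes (right) in CPM per kb of exon for each of the 6 libraries, HNRNPD siRNA libraries first. The TNRC6 sum is 16.63 to 17.07 after HNRNPD siRNA and 30.14 to 30.7 in the controls, with TNRC6A as the part that shrinks, while the Argonaute bars all stand between 10.6 and 11.09.

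Levels of different genes were compared per length, over all exonic bases that the table gives for each gene. After HNRNPD siRNA, DROSHA came first at 25.5 CPM per kb, ahead of TNRC6A at 12.9, DICER1 at 12.6 and DGCR8 at 10.3. In the controls, TNRC6A came first at 26.6 CPM per kb, followed by DICER1 at 16.6, DGCR8 at 12.4 and DROSHA at 11.3. TNRC6A and DICER1 differed by less than the larger of their SDs after HNRNPD siRNA (0.243 for TNRC6A and 0.616 for DICER1), and by more than either SD in the controls (0.442 for TNRC6A and 0.613 for DICER1). The other 6 genes lay between 0.909 and 3.6 CPM per kb after HNRNPD siRNA and between 0.893 and 3.42 CPM per kb in the controls. XPO5 was the highest and AGO3 the lowest of these 6 in both groups. Between them stood AGO2, TARBP2, TNRC6B and AGO1 after HNRNPD siRNA (2.96, 2.94, 2.81 and 2.73 CPM per kb), where neighbours differed by less than the larger of their SDs. In the controls the order was AGO2, TNRC6B, AGO1 and TARBP2 (3.13, 3.11, 2.92 and 2.31 CPM per kb), and AGO2 and TNRC6B differed by less than their SDs. The exonic length used for this ran from 4090 bases for TARBP2 to 21157 bases for AGO3.

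**Figure D4:**
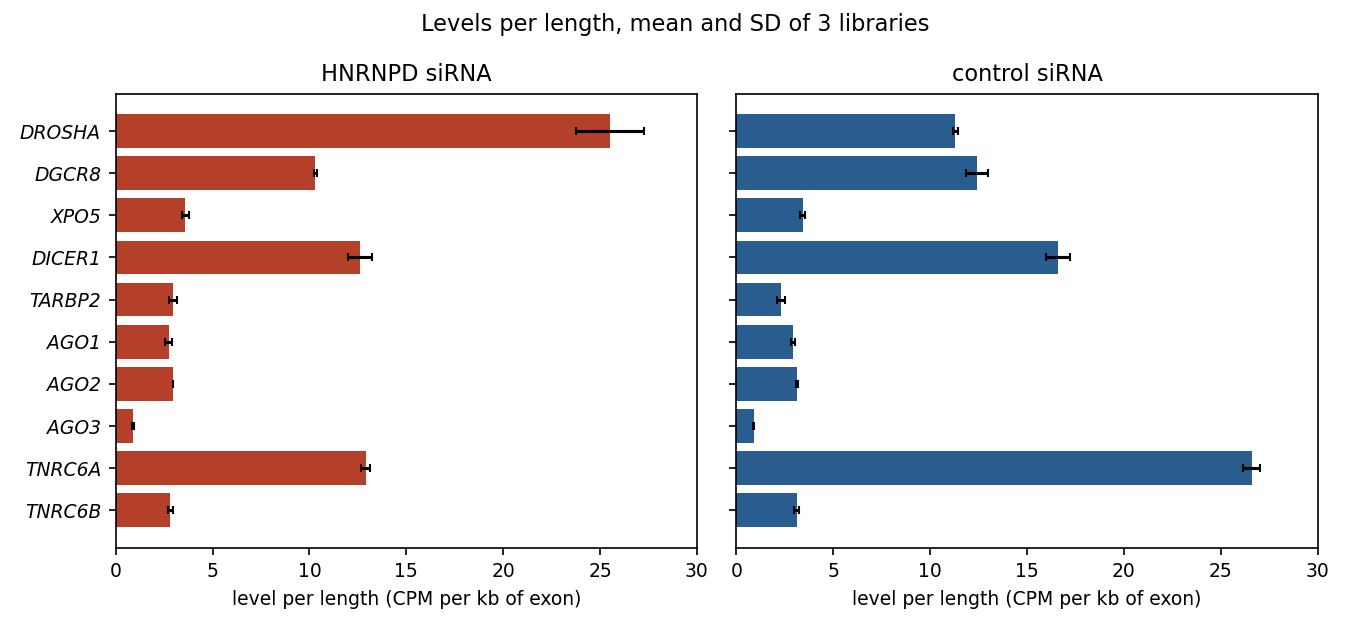
Horizontal bars give the mean level per length (CPM per kb of exon, linear axis from 0) of the 10 genes after HNRNPD siRNA (left) and with control siRNA (right), with SDs of 3 libraries as error bars. DROSHA is the longest bar after HNRNPD siRNA at 25.5, and TNRC6A is the longest in the controls at 26.6.

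Because AUF1 binds AU-rich sequence, the 3′ UTRs of the 10 genes were searched for the AUUUA pentamer (ATTTA in DNA letters) in 1 principal transcript per gene. DICER1 had 17, or 3.98 per kb, the highest density of the 10 genes, and 16.2% of all 3′ UTRs were at least as dense. DROSHA had 2 (2.14 per kb) and TNRC6A 5 (2.07 per kb), near the mean of 2.08 per kb over all 3′ UTRs, XPO5 had 1 (0.65 per kb), and DGCR8 and TARBP2 had 0. AGO1, AGO2, AGO3 and TNRC6B, whose 3′ UTRs run from 10921 to 16755 bases, had 19 to 41 pentamers at 1.59 to 2.52 per kb. The longer element UUAUUUAUU (TTATTTATT) occurs in 7.7% of all 3′ UTRs, and in 9.3% of those within the length range of the 10 genes (283 to 16755 bases). It was found in AGO1, AGO2 and TNRC6B, none of which was called, and the matches of AGO1 (chr1:35928982-35929008, plus strand) and TNRC6B (chr22:40334055-40334081, plus strand) are shown because this nonamer is the classical AU-rich element. The 5 called genes had no match to it in these transcripts. XPO5 and AGO3, which were not called, also had none, although AGO3 has the longest 3′ UTR of the 10 genes at 16755 bases. The 3′ UTRs of the 5 called genes have 283 to 4270 bases, while those of AGO1, AGO2 and TNRC6B have 10921 to 12567. A relation of the match to the call therefore cannot be told apart from length, and it was not tested.
AGO1 3′ UTR: gaagctcatTTATTTATTcacctatct
TNRC6B 3′ UTR: cttggaattTTATTTATTttgtttatc

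RefSeq promoter windows of 300 bases, most of them upstream of an annotated start, were available for 9 of the 10 genes, in 15 entries. None of them held the interferon-stimulated response element (TTTC, any 2 bases, TTTC), which occurs in 3.6% of 35116 promoters. A GC box (GGGCGG) was in 12 of the 15 entries, against 45% of all promoters, and a CCAAT box in 9 of the 15, against 34.6%. By gene, all 9 had a GC box in at least 1 entry and 7 had a CCAAT box, DROSHA, DICER1 and TNRC6A among them. Both strands were searched, and a missing match says only that these letters are not in this window.

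Accessory and downstream genes of the pathway were taken from lists that name them by role. Genes named from them below as rising or falling passed the same test, with log2 SEs of 0.06 to 0.10 for the lists other than the hosts. The shares to read each list's counts against are those of all tested genes, 28.4% higher and 27.8% lower. Of 15 genes whose proteins assist the Microprocessor, 1 was called higher and 7 lower (median log2 fold change -0.12), so that the share called in either direction was near the 56.1% of all tested genes. SRRT, which encodes ARS2, a link between the nuclear cap-binding complex and primary miRNA processing, fell 2.15-fold (log2 fold change -1.11, SE 0.07, adjusted p = 1.50e-10 in edgeR). NCBP1, the large subunit of that cap-binding complex, fell 1.61-fold. ERH, whose protein binds DGCR8, fell 1.33-fold, and 25.8% of its exonic bases are shared with other genes.

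Argonaute proteins are loaded with the help of the heat shock protein machinery. Of 13 genes of loading, 5 were called higher and 2 lower (median 0.07), again a total near the 56.1% called over all genes. HSP90AA1, the inducible HSP90 chaperone, was at 3889 ± 170 CPM after HNRNPD siRNA and 2312 ± 44.5 CPM in the controls (SD, n = 3 each; log2 fold change 0.75, adjusted p = 8.05e-09 in edgeR). The HSP90 activator AHSA1 rose 1.86-fold, the co-chaperone FKBP4 1.46-fold and HSPA8, the constitutive HSP70, 1.48-fold.

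Of 13 tested genes that tail, edit or degrade precursors and miRNAs, 5 were higher and 5 lower (median 0.01), beside 28.4% and 27.8% of all tested genes. PNPT1, a mitochondrial exonuclease, rose 5.68-fold, and ADAR, which edits double-stranded RNA, rose 2.83-fold, and both are known as interferon-induced genes. SND1, a nuclease of edited RNA, rose 1.68-fold and the 3′ exonuclease ERI1 fell 1.91-fold. LIN28B, chosen for mention after its value was seen because its protein blocks maturation of let-7 precursors, fell 1.68-fold to 24.57 ± 2.35 CPM after HNRNPD siRNA, against 41.18 ± 3.69 CPM in the controls (SD, n = 3 each).

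Of 17 tested Argonaute-associated genes, 7 were higher and 7 lower (median 0.09), beside 28.4% and 27.8% of all tested genes. MOV10, an RNA helicase found with Argonaute, rose 2.03-fold, and the RNA-binding protein genes FMR1 and FXR1 rose 2.10-fold and 1.43-fold. AJUBA, a LIM-domain protein, fell 2.47-fold. Of 26 deadenylation and decapping genes on which TNRC6 proteins act, 9 were higher and 9 lower (median -0.12), where 28.4% and 27.8% of all tested genes were. PAN2, the nuclease of the deadenylase PAN2-PAN3, rose 2.24-fold and the exonuclease XRN1 2.05-fold, while CNOT9 and CNOT6, subunits of CCR4-NOT, fell 1.87-fold and 1.55-fold. CNOT9 is the subunit whose pockets bind the tryptophans of TNRC6 proteins. Both CNOT9 and TNRC6A were called lower, and a link between these differences was not tested.

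**Figure D5:**
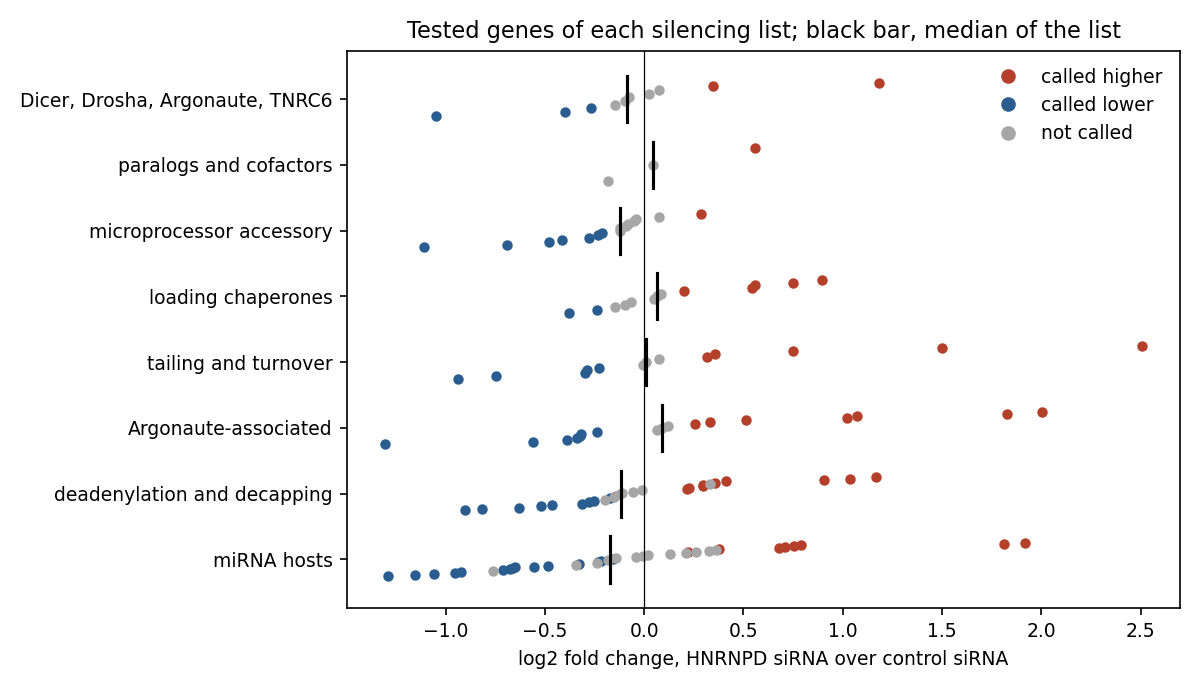
Each row plots the log2 fold changes (HNRNPD siRNA over control siRNA) of the tested genes of a list, with colours for the call and a black bar at the median. The medians lie between -0.17 and 0.09, while single genes run from -1.30 for AJUBA to 2.51 for PNPT1.

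Host genes, meaning genes that are named for an miRNA or known to hold its hairpin, were measured by their gene counts. The hairpins that Drosha cuts and the mature miRNAs were not measured by these counts. For the tested host MIRLET7DHG, let-7d lies on the opposite strand, so not every host transcript holds the hairpin it is named for. Among 36 tested hosts there were 8 called higher and 15 called lower, at a median log2 difference of -0.17, beside 28.4% called higher and 27.8% called lower over all tested genes. Those with the smallest p were MIR22HG, which fell 1.93-fold, MIR4697HG (1.90-fold lower), SREBF2 (1.60-fold lower), the host of miR-33a, and MIRLET7BHG. MIRLET7BHG, which spans let-7b and a copy of let-7a on chromosome 22, was at 3.545, 3.818 and 3.247 CPM after HNRNPD siRNA, against 7.043, 7.376 and 7.676 CPM in the controls (log2 fold change -1.06, SE 0.13, adjusted p = 9.57e-07 in edgeR). MIR99AHG and MIR100HG, let-7 hosts chosen after their values were seen, differed the other way. MIRLET7DHG and MIR4500HG, the host of miR-4500 with the seed of let-7, were also tested, and their values are not given here. MIR99AHG, which spans let-7c, was at 2.231 ± 0.3 CPM after HNRNPD siRNA and 0.589 ± 0.0456 CPM in the controls (SD, n = 3 each), and MIR100HG, which spans another copy of let-7a, rose 1.73-fold. The log2 SE was 0.23 for MIR99AHG and 0.10 for MIR100HG. The mature let-7 sequences of these hosts are shown with their common seed in capitals, since the DICER1 coding matches above are complements of it, together with miR-107 and miR-103a, which share a seed and lie in PANK1 (miR-107), PANK2 and PANK3 (miR-103a). Sequences are from RefSeq (GRCh38.p14).
hsa-let-7a-5p (MIRLET7BHG, MIR100HG): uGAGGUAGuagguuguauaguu
hsa-let-7b-5p (MIRLET7BHG): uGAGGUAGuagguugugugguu
hsa-let-7c-5p (MIR99AHG): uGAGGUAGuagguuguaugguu
hsa-miR-107 (PANK1): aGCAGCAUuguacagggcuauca
hsa-miR-103a-3p (PANK2, PANK3): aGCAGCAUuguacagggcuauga
PANK1, also chosen after its value was seen, rose 1.69-fold (log2 SE 0.13), PANK2 rose 1.17-fold, a call lost without HNRNPD siRNA replicate 2 (adjusted p = 0.0504), and PANK3 was not called (log2 fold change -0.04, adjusted p = 0.61, edgeR). Mature miRNAs were not analysed here.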

How the data were processed

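The authors deposited 1 table of whole-number read counts per gene with gene coordinates and length. Per the labels' protocols, RNA was isolated with Trizol and the library kit was Illumina TruSeq RNA. The submitters' processing notes name Bowtie 0.12.2 and the builds GRCh38 and mm8, without a role. All 10 genes overlapped their GENCODE 29 gene on GRCh38. The sources used here do not give the counting program, annotation or strand setting. Among counts of 1 to 20, the even share was 66.2% to 69.5%, and among counts over 200 it was 50.6% to 51.7%. Both mates of a pair may thus have been counted, which was not tested further than by dividing counts by 2.

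All 6 libraries, of 37151094 to 43005090 counts, were fitted with edgeR 4.0.16 in R 4.3.3 (filterByExpr, TMM, robust quasi-likelihood, group as the only term), with Benjamini-Hochberg adjustment over 20465 genes. CPM use TMM-scaled totals, and CPM per kb divides by the deposited length. SEs are the absolute log2 fold change over the root of the F statistic. The code was tested on simulated data. Alternatives used limma-voom (limma 3.58.1), DESeq2 1.42.0, other scalings and filters, counts divided by 2, a replicate block and leaving out each library. The 10 genes, the lists and the tests were chosen with earlier results of these data known. Of each list the 4 tested genes with the smallest p are named, of the list of paralogs and cofactors all, and exceptions are marked in the text. A few genes that the rule or the marker list would name are not reported here. The hosts are all 50 rows named MIR...HG and 14 protein-coding genes, of which 36 could be tested. No pair of replicates agreed within sampling noise (chi-square per degree of freedom of 6.63 to 27.67).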

Additional observations from a re-analysis of the deposited data

How the results depend on the processing

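Of 150 values of the 10 genes under 15 alternatives, 146 kept their direction and their side of the threshold, and the calls of DROSHA, TNRC6A, DICER1 and DGCR8 held under all 15. Leaving out each library in turn gave 1 to 2 of the 10 genes higher, with TARBP2 at 0.27 to 0.40, TNRC6B at -0.19 to -0.13 and AGO3 at -0.0024 to 0.0601 on the log2 scale. The lowest values came without control replicate 2 for TARBP2 and for the count, without HNRNPD siRNA replicate 3 for TNRC6B, and without control replicate 3 for AGO3, whose sign changed. With no length scaling, the difference in share (HNRNPD siRNA minus control, in percentage points) was -12.39 for TNRC6A, 8.83 for TNRC6B and 3.57 for TNRC6C, against -11.01, 6.45 and 4.56 with it. With the replicate block, 2 of the 10 genes were higher and 3 lower, and 5792 and 5737 of all genes, against 5803 and 5687 without it. Same-numbered libraries deviated from their group means with correlations of -0.001 to 0.077, so the numbers were not taken to pair the libraries. Of 510 values of 34 other genes, 508 were unaltered in call and direction, while PANK2 lost its call in 1 and PANK3, not called, ranged from -0.0873 to 0.005 when single libraries were left out. The cause of these changes was not tested. AGO1, AGO2 and AGO3 were called under none of the 15 alternatives, with adjusted p of at least 0.144, 0.245 and 0.563.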

Other observations

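DICER1-AS1, the gene antisense to DICER1, was singled out after its value was seen. It was at 4.15, 4.987 and 3.697 CPM after HNRNPD siRNA, against 1.268, 1.634 and 1.359 CPM in the controls (log2 fold change 1.59, SE 0.18, adjusted p = 5.75e-07 in edgeR), so it was higher where DICER1 was lower. It overlaps DICER1 exons by 80 bases, and with no strand setting given, reads over those bases cannot be assigned to either gene.

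Protein-coding genes averaging 5 CPM or more were ranked, 9645 in all besides DROSHA, and those whose level relative to the control mean was most like that of DROSHA over the 6 libraries were SETD7, MAP7 and GOLGA2, with a mean absolute difference of 0.0382, 0.0383 and 0.0419 on the log2 scale.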
